A study of Mus musculus with 5 samples.

Results

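The genes described are 10 genes of the circadian clock (Per1, Per2, Per3, Cry1, Cry2, Nr1d1, Nr1d2, Dbp, Tef and Clock), taken by name from a table of 22042 genes; all 10 were measured. The study sorted epithelial cells of the small intestine from mice fasted overnight, of which some were given Ensure (a liquid diet) afterwards and are called refed after the sample labels; the methods text has fed in place of refed. All mice carried Cck-Cre and R26-LSL-tdTomato on the C57Bl/6J strain and were 6 to 8 weeks old, so that the Cck promoter drove the recombinase that switched on the red reporter. Cells with the reporter are called CCK+ and cells without it CCK-. Each of 6 mice gave 1 library of each kind, which makes 12 bulk RNA libraries in 4 groups of 3: CCK+ fasted and CCK- fasted from mice A, B and F, and CCK+ refed and CCK- refed from mice C, D and E. The sex of each mouse, the time of day at collection and the length of refeeding are not given in the sources used here, so that the feeding state and any difference in the hour of collection cannot be told apart.

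The circadian clock is a loop of transcription in which CLOCK and its partner BMAL1 (gene Arntl) bind E-box sequences and raise the transcription of the Per and Cry genes, whose proteins then repress CLOCK and BMAL1. A second loop runs through the nuclear receptors REV-ERBα and REV-ERBβ (Nr1d1 and Nr1d2), which repress Arntl, and the output factors DBP, TEF and HLF bind D-box sequences. In the intestinal epithelium, as in liver, the loop is known to take timing cues from food as well as from light through the brain's clock, and Per1 is also a known target of glucocorticoids.

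Values are normalized counts, that is, gene counts divided by the authors' normalization factors, and the 12 libraries sum to between 7061155 and 11371114 of them. Differences are on the log2(normalized count + 1) scale, which understates the change of low genes, and were tested with limma across all 22042 genes; a gene is called when its adjusted p is under 0.05. The sorting label held: Cck ranged from 14837 to 32592 normalized counts in the 6 CCK+ libraries and from 27.6 to 86.0 in the 6 CCK- libraries.

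Among the repressors, Per1 fell with refeeding in CCK- cells. Per1 stood at 436, 444 and 734 normalized counts in the CCK- libraries of fasted mice A, B and F and at 96.4, 124 and 112 in those of refed mice C, D and E. All 3 refed libraries lay below all 3 fasted ones, by a wide margin. The difference was -2.23 (SE 0.26) on the log2 scale, a 4.70-fold lower level in the refed libraries, with a limma adjusted p of 0.000603 (0.000426 to 0.0663 over the alternatives). In CCK+ cells the same gene was at 628, 472 and 814 normalized counts in fasted mice A, B and F and at 260, 441 and 397 in refed mice C, D and E. These groups did not overlap either, though by a narrow margin, and the difference of -0.80 (SE 0.26) missed the threshold (limma adjusted p = 0.129).

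Cry2, the other repressor that was called, showed the same order of groups. In CCK- cells it was at 355, 331 and 357 normalized counts in fasted mice A, B and F and at 114, 189 and 108 in refed mice C, D and E. The fasted libraries lay close together and all above the refed ones, and Cry2 fell by 1.38 on the log2 scale (SE 0.25, limma adjusted p = 0.0182). In CCK+ cells Cry2 was at 662, 402 and 401 in the fasted libraries of mice A, B and F and at 219, 334 and 305 in the refed libraries of mice C, D and E. Again no refed library reached a fasted one, while the difference of -0.75 (SE 0.25) was not called (limma adjusted p = 0.142). The call in CCK- cells was lost when libraries were scaled to equal sums (-1.305, limma adjusted p = 0.05082) or quantile normalized (-1.249, limma adjusted p = 0.05342). It was also lost without any 1 of CCK- fasted A, B or F, CCK- refed C or E, or CCK+ refed D or E, with the CCK- libraries alone (limma adjusted p = 0.1254) or with no mean-variance trend (limma adjusted p = 0.1049), with adjusted p over all alternatives between 0.0151 and 0.125.

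The other 3 repressors were not called in either population. Per2 had a difference of the opposite sign to Per1. In CCK- cells Per2 was at 530, 360 and 1005 normalized counts in fasted mice A, B and F and at 933, 1670.3 and 1230.0 in refed mice C, D and E, a difference of 1.11 (SE 0.32, limma adjusted p = 0.130). The fasted library of mouse F lay above the lowest refed one, and without it the difference was 1.51 and passed the threshold (limma adjusted p = 0.0429; 0.0429 to 0.441 over the alternatives). In CCK+ cells Per2 was at 387, 344 and 584 in fasted mice A, B and F and at 680.2, 896 and 694 in refed mice C, D and E, with no overlap and a difference of 0.81 (SE 0.32, limma adjusted p = 0.214).

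Per3 was at 205, 177 and 373 normalized counts in the CCK+ libraries of fasted mice A, B and F and at 128, 122 and 67.5 in those of refed mice C, D and E. Those groups did not overlap, and the difference of -1.22 (SE 0.36) had a limma adjusted p of 0.0938. In CCK- cells Per3 was at 274, 149 and 354 in fasted mice A, B and F and at 169, 157 and 108 in refed mice C, D and E. There the fasted library of mouse B lay inside the refed range, and the difference was -0.78 (SE 0.36, limma adjusted p = 0.413). For Cry1, single libraries stood far above the rest of their group. CCK+ fasted B was at 560.4, CCK+ refed C at 483 and CCK- refed D at 667, whereas the other 9 libraries ranged from 68.0 to 181. In CCK- cells it was at 107, 88.7 and 102 in fasted mice A, B and F and at 124, 667 and 181 in refed mice C, D and E, without overlap, while the CCK+ groups overlapped. The 95% intervals of the Cry1 difference, from -1.60 to 1.76 in CCK+ cells and from -0.37 to 2.99 in CCK- cells, are the widest of the 10 genes in both populations. The Cry1 difference itself was 0.08 (limma adjusted p = 0.994) in CCK+ and 1.31 (limma adjusted p = 0.572) in CCK- cells.

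**Figure D1:**
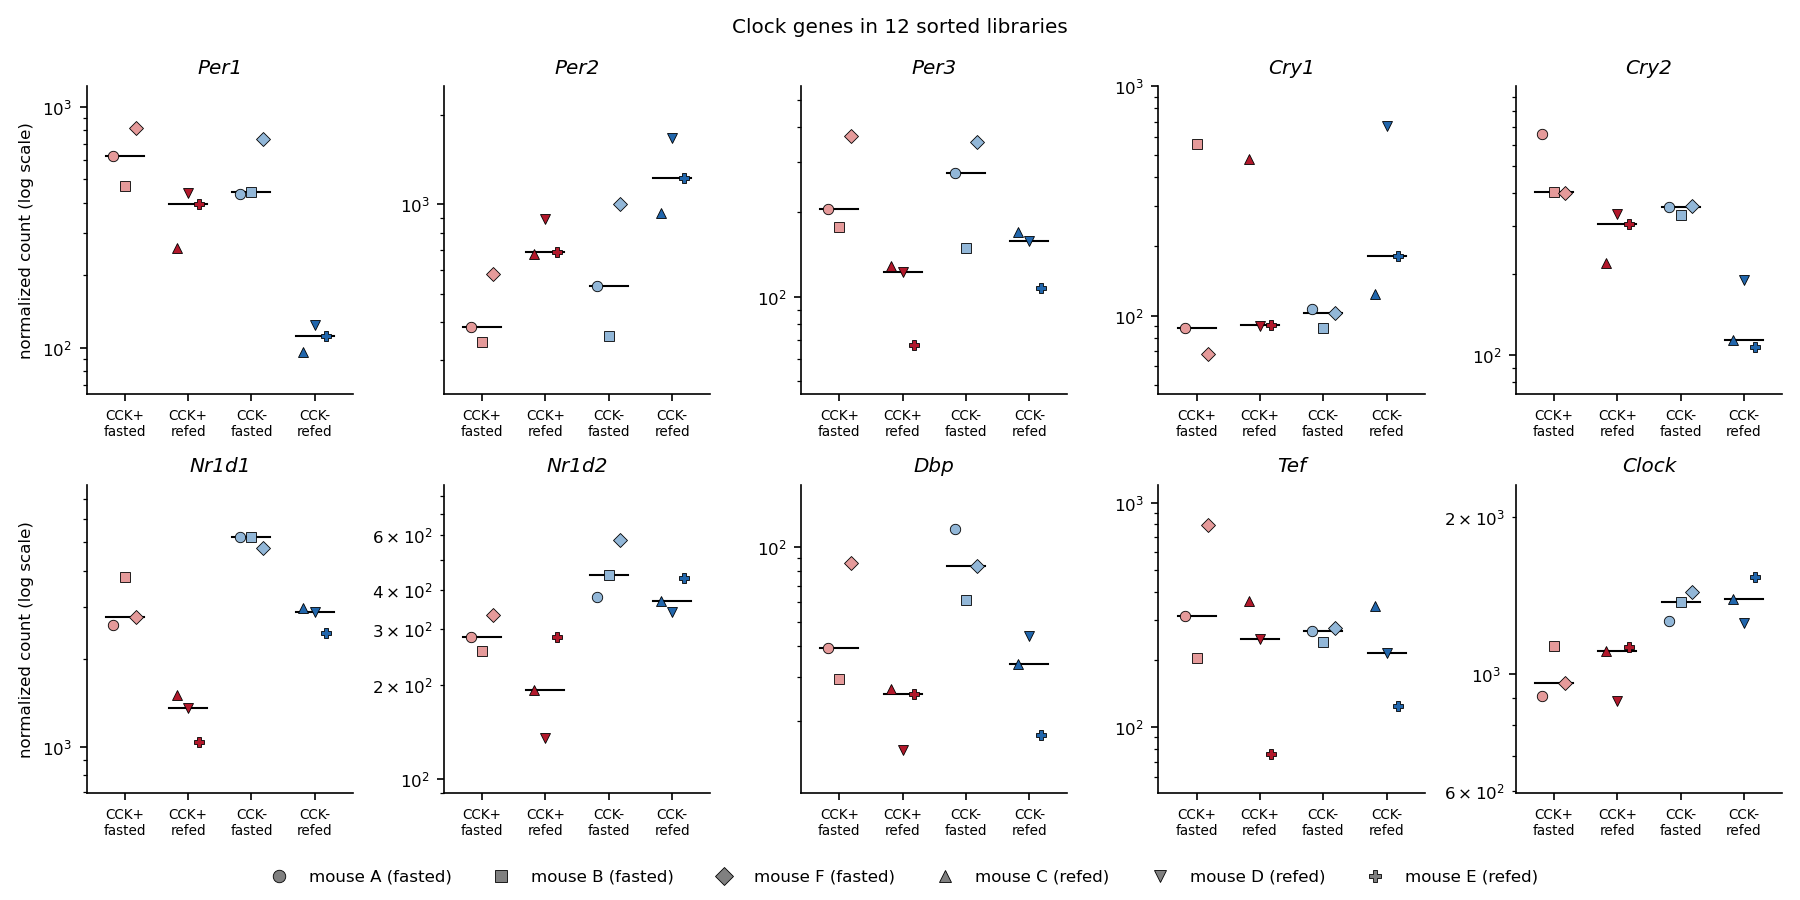
Normalized count (log axis) of each clock gene in the 12 libraries, by group, with a symbol for each mouse and a bar at the median of 3 libraries. The CCK- refed libraries of Per1 (96.4 to 124) lie below all other libraries, and Cry1 has 1 high library in each of 3 groups.

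Nr1d1, which encodes REV-ERBα, was the single clock gene called in both populations. In CCK+ cells it was at 2607, 3787 and 2784 normalized counts in fasted mice A, B and F and at 1503, 1359 and 1038 in refed mice C, D and E. In CCK- cells the fasted libraries of mice A, B and F held 5228, 5202 and 4789.5 normalized counts and the refed libraries of mice C, D and E held 2969, 2877 and 2452. Within each population every refed library was below every fasted one. Nr1d1 fell by 1.23 (SE 0.18, limma adjusted p = 0.00388, and 0.00192 to 0.122 over the alternatives) in CCK+ cells and by 0.88 (SE 0.18, limma adjusted p = 0.0287) in CCK- cells. The call in CCK- cells was lost without any 1 of the 6 CCK- libraries, or without CCK+ fasted F, CCK+ refed C or CCK+ refed D. It was also lost with the CCK- libraries alone (limma adjusted p = 0.0643) or with no mean-variance trend (limma adjusted p = 0.1535). Over all alternatives the limma adjusted p ran from 0.0191 to 0.154.

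Nr1d2, the paralogue that encodes REV-ERBβ, was not called. It was at 283, 255 and 333 normalized counts in CCK+ fasted mice A, B and F and at 193, 135 and 284 in CCK+ refed mice C, D and E. The refed library of mouse E lay inside the fasted range, and the difference was -0.57 (SE 0.24, limma adjusted p = 0.258). In CCK- cells Nr1d2 was at 381, 447 and 578 in fasted mice A, B and F and at 368, 342 and 437 in refed mice C, D and E. These groups overlapped, with a difference of -0.28 (SE 0.24, limma adjusted p = 0.757).

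The PAR bZIP output factors gave no call. Dbp was low, at 39.1, 29.5 and 86.4 normalized counts in CCK+ fasted mice A, B and F and at 26.8, 15.3 and 25.6 in CCK+ refed mice C, D and E. Its CCK- libraries held 119, 61.2 and 84.2 in fasted mice A, B and F and 34.0, 44.0 and 17.5 in refed mice C, D and E. In both populations the refed libraries lay below the fasted ones, without overlap. The Dbp difference was -1.05 (SE 0.46, limma adjusted p = 0.263) in CCK+ cells and -1.48 (SE 0.46, limma adjusted p = 0.160) in CCK- cells. Tef was at 312, 204 and 798 normalized counts in CCK+ fasted mice A, B and F and at 366, 246 and 76.1 in CCK+ refed mice C, D and E. Its CCK- libraries held 269, 238 and 278 in fasted mice A, B and F and 346, 214 and 125 in refed mice C, D and E. The Tef groups overlapped in both populations, with the highest value in CCK+ fasted F, and the differences were -0.96 (SE 0.54, limma adjusted p = 0.406) in CCK+ cells and -0.32 (SE 0.54, limma adjusted p = 0.914) in CCK- cells. Hlf, the third factor of this family, had differences of -0.51 (limma adjusted p = 0.488) in CCK+ and -0.55 (limma adjusted p = 0.592) in CCK- cells.

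Clock, the activator, had the narrowest interval of the 10 genes. It ranged from 889 to 1134 normalized counts in the 6 CCK+ libraries and from 1252 to 1531 in the 6 CCK- libraries, with fasted and refed libraries overlapping in each. The refed minus fasted difference was 0.05 in CCK+ cells, with a 95% interval from -0.27 to 0.37, and 0.03 in CCK- cells, with an interval from -0.29 to 0.35.

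In all, limma called 1 of 10 clock genes in CCK+ cells, where 2.55% of all genes tested were called (1.31% higher and 1.23% lower), and 3 of 10 in CCK- cells, where 1.23% of all genes were called (0.708% higher and 0.526% lower). With genes filtered at a mean of 10, which all 10 clock genes passed, limma called 655 of 13517 in CCK+ and 355 in CCK- cells. All 4 clock gene calls were decreases with refeeding. In CCK+ cells 7 of the 10 had an unadjusted limma p under 0.05 (3736 of all genes), and in CCK- cells 6 (2635 of all genes). Among them only Per2 had a difference above 0, in both populations. The median difference of the 10 genes was -0.77 in CCK+ and -0.55 in CCK- cells, beside medians of all genes of 0.01 and 0.00. Groups of 3 did not overlap for 6 of the 10 genes in CCK+ cells (Per1, Per2, Per3, Cry2, Nr1d1 and Dbp), where 19.4% of all genes did not, and for 5 in CCK- cells (Per1, Cry1, Cry2, Nr1d1 and Dbp), where 16.2% of all genes did not. Of these, Per2 in CCK+ and Cry1 in CCK- cells were higher in the refed libraries.

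**Figure D2:**
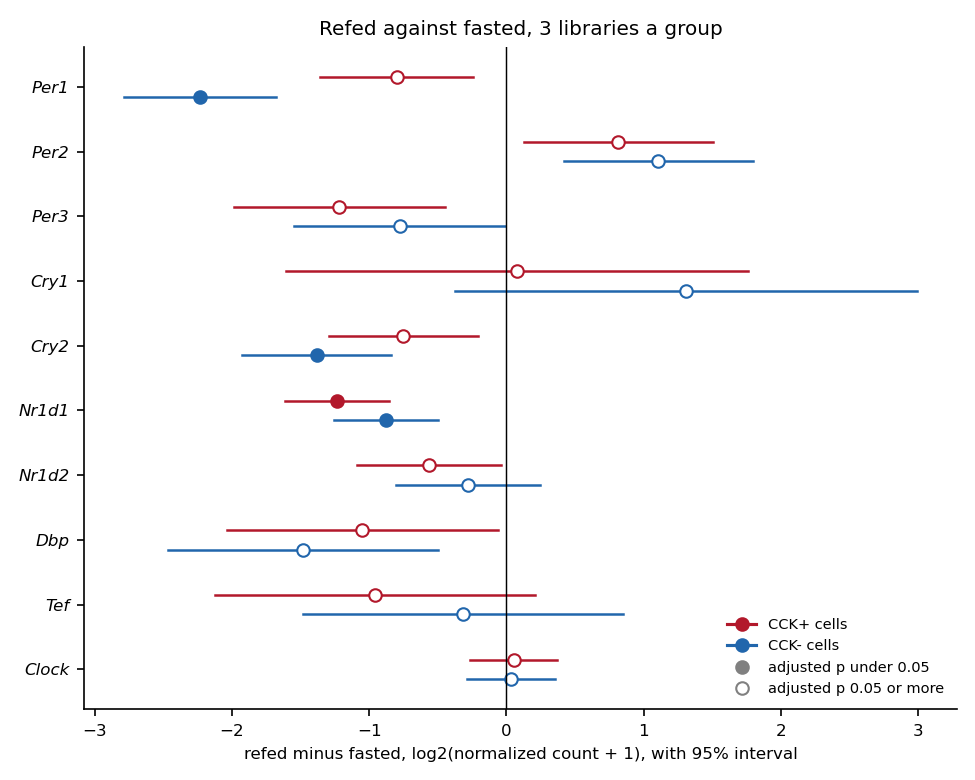
Refed minus fasted difference in log2(normalized count + 1) for each clock gene, with 95% intervals, in CCK+ and CCK- cells (3 against 3 libraries each); filled points passed the limma threshold. Nr1d1 was called in both populations, Per1 (-2.23) and Cry2 (-1.38) in CCK- cells, and Per2 points lie on the other side of 0 from Per1.

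These calls draw on the spread of all 12 libraries. With the 6 CCK+ libraries fitted alone, limma called 0 of 22042 genes, and Nr1d1 had an adjusted p of 0.122. There 5 of the 10 clock genes had an unadjusted p under 0.05 (3190 of all genes). With the 6 CCK- libraries alone it called 63 genes and 0 of the 10 clock genes, of which 4 had an unadjusted p under 0.05 (2747 of all genes); Per1 had an adjusted p of 0.0663 and Nr1d1 of 0.0643.

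Since CCK+ and CCK- libraries came from the same mice, a comparison of mice was added after seeing the data, on the mean log2 value of the 2 libraries of each mouse, 3 refed against 3 fasted. In it limma called Per1 (-1.52, adjusted p = 0.00793), Cry2 (-1.07, adjusted p = 0.0229) and Nr1d1 (-1.06, adjusted p = 0.00805), which is 3 of 10, where 2.62% of all genes were called (1.35% higher and 1.27% lower). With genes filtered at a mean of 10 it called 712 of 13517. Over the alternatives of this comparison the adjusted p of Per1 ran from 0.01196 to 0.235, of Cry2 from 0.02508 to 0.227 and of Nr1d1 from 0.006595 to 0.231. Cry2 missed the threshold with equal sums (-0.92, limma adjusted p = 0.0606). Per2 had a difference of 0.96 (limma adjusted p = 0.0897) and Dbp of -1.27 (limma adjusted p = 0.0644), which passed with genes filtered at a mean of 10 (limma adjusted p = 0.04702; 0.04702 to 0.323 over the alternatives). Without any 1 of the 6 mice, 0 clock genes were called by limma, with 4 to 7 of them at an unadjusted p under 0.05 (2662 to 3627 of all 22042 genes), and over all genes 1 was called without mouse A and 0 without each of the others, so that almost no gene could pass with 5 mice. The differences themselves remained of similar size in those fits, from -1.67 to -1.30 for Per1, from -1.26 to -0.92 for Cry2 and from -1.14 to -0.94 for Nr1d1. With no mean-variance trend it called 3 genes and 0 clock genes.

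The difference between the populations in the refed against fasted response was tested directly. None of the 10 clock genes was called by limma. An unadjusted p under 0.05 held for 1 of them (1378 of all genes): Per1, with a difference of 1.43 (SE 0.37, limma adjusted p = 0.565). Over all genes 0.00454% were called, a single gene, Gvin1, named after its values were seen. This fit took the libraries as independent, although both populations came from the same mice. With the mouse as a fixed block, 2 clock genes had an unadjusted limma p under 0.05 (1714 of all genes) and none was called. The limma adjusted p of Per1 ran from 0.3375 to 0.8252 over the alternatives. The larger fall of Per1 in CCK- cells is therefore not shown to differ from that in CCK+ cells.

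Between the populations, averaged over both states, limma called 5 of 10 clock genes, where 33.7% of all genes were called (19.6% higher and 14.1% lower in CCK+). With genes filtered at a mean of 10, which all 10 clock genes passed, limma called 6801 of 13517. Per1 was higher in CCK+ cells by 0.97 (SE 0.18, limma adjusted p = 0.000811) and Cry2 by 0.77 (SE 0.18, limma adjusted p = 0.00382), each in 6 of 6 mice. Nr1d1 was lower in CCK+ cells, with a difference of -0.92 (SE 0.12, limma adjusted p = 4.87e-05), Nr1d2 with -0.82 (SE 0.17, limma adjusted p = 0.00192) and Clock with -0.43 (SE 0.10, limma adjusted p = 0.00509), each in 6 of 6 mice. Per2, at -0.58 (limma adjusted p = 0.0642), was also lower in 6 of 6 mice and passed the threshold with the mouse as a random block (limma adjusted p = 0.04282) or a fixed block (limma adjusted p = 0.003145), and without CCK- fasted B (-0.75, limma adjusted p = 0.02072); its range over the alternatives was 0.003145 to 0.589.

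Scaling and state bear on these calls. The median gene differed between the populations by 0.09 as deposited, by 0.35 with libraries scaled to equal sums and by -0.14 after quantile normalization. Clock was at -0.04 (limma adjusted p = 0.816) with equal sums and at -0.12 (limma adjusted p = 0.367) after quantile normalization, and Nr1d2 at -0.42 (limma adjusted p = 0.0844) with equal sums; Dbp passed the threshold after quantile normalization, at -1.23 (limma adjusted p = 0.0116; 0.0116 to 0.605 over the alternatives). The adjusted p of Clock ran from 0.002815 to 0.816 and that of Nr1d2 from 0.0005912 to 0.102. Within a mouse, the Per1 ratio of CCK+ to CCK- was 1.44, 1.06 and 1.11 in fasted mice A, B and F and 2.70, 3.55 and 3.54 in refed mice C, D and E. The refed ratios were all above the fasted ones. In the fasted libraries alone the Per1 difference was 0.25 (limma adjusted p = 0.644), and its adjusted p over the alternatives ran from 0.0001062 to 0.644. With the fasted libraries alone limma called 0 of 10 clock genes and 2169 of 22042 genes, with 3 and 5469 at an unadjusted p under 0.05. Nr1d1 (-0.75, limma adjusted p = 0.0569) and Cry2 (0.45, limma adjusted p = 0.287) kept their sign there.

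**Figure D3:**
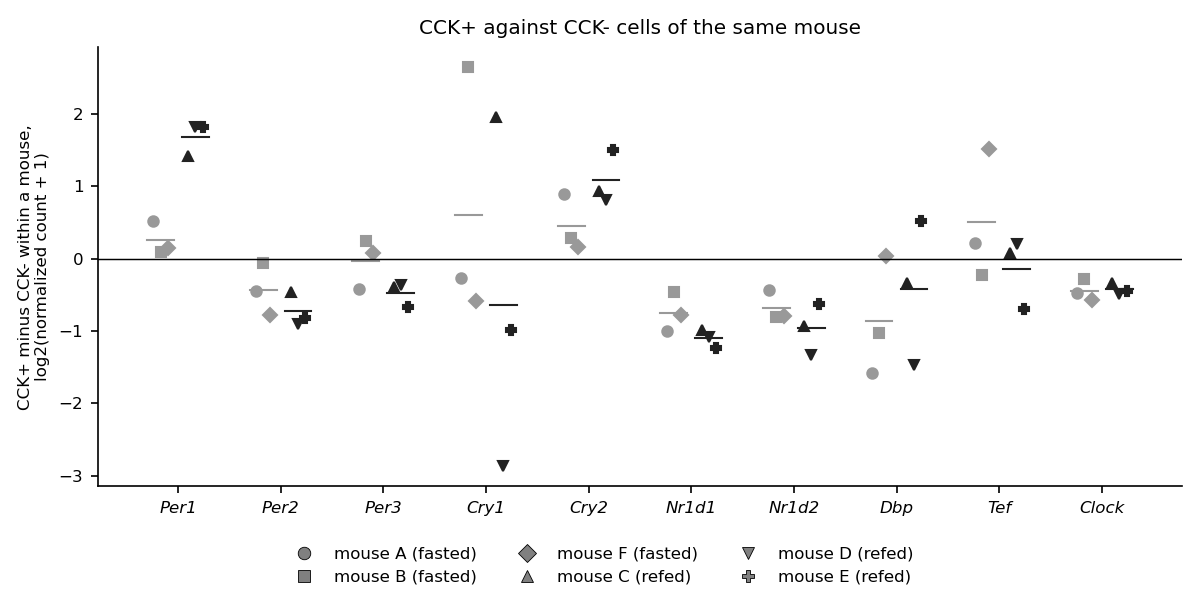
CCK+ minus CCK- difference in log2(normalized count + 1) within each mouse, with bars at the mean of 3 fasted (grey) and 3 refed (black) mice. Per1 and Cry2 lie above 0 and Per2, Nr1d1, Nr1d2 and Clock below 0 in all 6 mice; the Cry1 points spread from 2.65 to -2.87.

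The order of group means placed CCK- refed lowest for Per1 (111 normalized counts) and Cry2 (137), and highest for Per2 (1278). For Per1 the CCK+ fasted (638), CCK- fasted (538) and CCK+ refed (366) means had ranges that overlapped from one neighbour to the next, and only CCK- refed stood apart. For Nr1d1 the order was CCK- fasted (5073), CCK+ fasted (3059.5), CCK- refed (2766) and CCK+ refed (1300.2), in which the middle pair overlapped. Cry2 ran from CCK+ fasted (488.0) through CCK- fasted (347) and CCK+ refed (286) to CCK- refed (137), with overlap in the middle pair, and Per2 from CCK- refed (1278) through CCK+ refed (757) and CCK- fasted (632) to CCK+ fasted (438). For Per2 the CCK- refed libraries lay above both CCK+ groups and overlapped with CCK- fasted.

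Per3 was highest in CCK- fasted (259), then CCK+ fasted (252), CCK- refed (145) and CCK+ refed (106), with overlap within the fasted pair, within the refed pair and between CCK- fasted and CCK- refed. Nr1d2 ran from CCK- fasted (469) and CCK- refed (382) to CCK+ fasted (290.3) and CCK+ refed (204), and Clock from CCK- refed (1392) and CCK- fasted (1358) to CCK+ refed (1041) and CCK+ fasted (1002), each with overlap within a population and none between the populations. For Cry1 (CCK- refed, CCK+ fasted, CCK+ refed, CCK- fasted), Dbp (CCK- fasted, CCK+ fasted, CCK- refed, CCK+ refed) and Tef (CCK+ fasted, CCK- fasted, CCK+ refed, CCK- refed) all neighbours in the order overlapped.

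The genes whose pattern over the 12 libraries was nearest to that of Per1, after the mean of each population was subtracted, were Pim3 (Pearson r = 0.962), Frat2 (0.958), Pde4dip (0.939), Irs2 (0.933) and Ctdspl (0.928). Nearest to Nr1d1 were Pck1 (0.991), Cobl (0.984), Odf3b (0.979), Chdh (0.978) and Abhd4 (0.978), and nearest to Dbp were Pik3c3 (0.923), Gtpbp8 (0.922), Acox3 (0.905), Parl (0.898) and Cyth2 (0.888). These are descriptions out of 9662 genes with a mean of at least 50 normalized counts, and the libraries share mice and states.

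Of the RefSeq promoter windows, 250 bases before to 50 after a gene's start on GRCm38.p6, 9 of the 10 clock genes had at least 1 (Per2 was not matched), with 13 windows in all. An E-box (CACGTG, both strands) was found in 4 of these 13 windows (1 of Per1, 1 of Cry1 and 2 of Tef) and in 7.15% of all 32851 windows. Its variant, the E'-box (CACGTT, both strands), was found in 3 of the 13 (Cry1, Cry2 and Nr1d1) and in 4.68% of all windows, and a D-box in 1 of the 13 (Per3, as TTATGTAA at 2 places) and 1.06%. No window of the 9 genes held the ROR element (TAGGTCA or TGGGTCA, 6.45% of all windows), the cAMP response element (1.79%) or the glucocorticoid response element (0.152%). Per1 has 2 windows, of which the second held none of these motifs. The first is shown because Per1 was called with refeeding and the window holds an E-box, in capitals, whose first base lies 166 bases before the start; it lies at chr11:69098699-69098998 on the + strand.
Per1: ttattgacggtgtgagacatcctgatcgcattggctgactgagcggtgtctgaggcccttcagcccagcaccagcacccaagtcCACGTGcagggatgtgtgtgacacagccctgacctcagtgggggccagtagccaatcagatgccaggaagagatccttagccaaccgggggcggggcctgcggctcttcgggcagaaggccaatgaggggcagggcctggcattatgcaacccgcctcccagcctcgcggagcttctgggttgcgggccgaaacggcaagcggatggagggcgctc
A match is a description of the letters and not of binding.

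Among the activators and their paralogues (Arntl, Arntl2 and Npas2), limma called 0 of 3 in either population. An unadjusted p under 0.05 held for 1 of 3 in each (3736 of all genes in CCK+ and 2635 in CCK- cells). Arntl, which encodes BMAL1, differed by 0.61 (limma adjusted p = 0.427) in CCK+ and 0.13 (limma adjusted p = 0.988) in CCK- cells. Npas2, a paralogue of Clock, differed by -0.80 (limma adjusted p = 0.211) in CCK+ and -0.72 (limma adjusted p = 0.363) in CCK- cells. The fasted and refed libraries of Arntl overlapped in each population, those of Npas2 in CCK+ cells only, and no absence of a difference is claimed.

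Of 9 other repressors and modulators of the loop, 0 were called in CCK+ cells, with 2 at an unadjusted p under 0.05 (3736 of all genes). In CCK- cells 1 was called higher, where 0.708% of all genes were. That gene was Bhlhe40 (DEC1), a repressor that acts at E-boxes. Its CCK- libraries held 1253, 879 and 1575 normalized counts in fasted mice A, B and F and 2181.7, 3209 and 3121 in refed mice C, D and E. Every refed library was above every fasted one. Bhlhe40 rose by 1.22 (limma adjusted p = 0.0237) in CCK- cells, and the difference in CCK+ cells was 0.84 (limma adjusted p = 0.0834); over alternatives the adjusted p in CCK- cells ran from 0.0191 to 0.190, and 3 of 12 fits without 1 library kept the call. In CCK+ cells Bhlhe40 passed the threshold with equal sums (1.06, limma adjusted p = 0.02857) and after quantile normalization (1.01, limma adjusted p = 0.03011), with adjusted p over the alternatives between 0.02857 and 0.258. Nfil3, a repressor at D-boxes, differed by 0.62 (limma adjusted p = 0.484) in CCK+ and -0.13 (limma adjusted p = 0.9999) in CCK- cells, and Ciart, a repressor of CLOCK and BMAL1, by -0.73 (limma adjusted p = 0.628) and -1.08 (limma adjusted p = 0.599), at 5.18 to 39.3 normalized counts.

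Among 6 clock-controlled output genes, 1 was called higher in CCK- cells (0.708% of all genes) and 0 in CCK+ cells (1.31% of all genes). In CCK+ cells 2 of the 6 had an unadjusted p under 0.05 (3736 of all genes), both with a difference below 0. Alas1, the first enzyme of heme synthesis, was at 361, 337 and 383 normalized counts in CCK- fasted mice A, B and F and at 533, 635 and 897 in CCK- refed mice C, D and E, without overlap. It rose by 0.90 (limma adjusted p = 0.0334) in CCK- cells, and 1 of 12 fits without 1 library kept that call (limma adjusted p 0.0244 to 0.196 over the alternatives).

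Glucocorticoid-responsive genes included Zbtb16, with the largest difference reported here of the further lists in each population. Of 9 measured, 3 were called lower in CCK+ cells (Fkbp5, Zbtb16 and Sgk1), where 1.23% of all genes were, and 2 in CCK- cells (Fkbp5 and Zbtb16), where 0.526% of all genes were. Fkbp5, a co-chaperone of the glucocorticoid receptor, was at 746, 1104 and 959 normalized counts in CCK- fasted mice A, B and F and at 124, 170.2 and 166 in CCK- refed mice C, D and E. No refed library came near a fasted one. Fkbp5 fell by 2.60 (limma adjusted p = 6.24e-05) in CCK- and by 1.55 (limma adjusted p = 0.00343) in CCK+ cells. Zbtb16, a zinc finger transcription factor, was at 114, 234 and 126 normalized counts in CCK- fasted mice A, B and F and at 4.28, 3.57 and 5.75 in CCK- refed mice C, D and E. It fell by 4.79 (limma adjusted p = 7.15e-05) in CCK- and by 2.94 (limma adjusted p = 0.00388) in CCK+ cells. Sgk1, a kinase, was at 1031, 3453 and 2517 in CCK+ fasted mice A, B and F and at 736, 607 and 613 in CCK+ refed mice C, D and E, without overlap. It fell by 1.68 (limma adjusted p = 0.0320) in CCK+ cells and had a difference of -1.09 (limma adjusted p = 0.226) in CCK- cells; 2 of 12 fits without 1 library kept the CCK+ call (limma adjusted p 0.0146 to 0.223 over the alternatives). For Fkbp5 and Zbtb16 the CCK- calls held in all 19 alternatives (limma adjusted p up to 0.0413 and 0.0362) and the CCK+ calls in 18, all but the fit of the CCK+ libraries alone (0.108 and 0.1105). The other 6 genes of the list were not called in either population, and the median of the list was -0.29 in CCK+ and -0.61 in CCK- cells.

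Of 9 immediate early and cAMP-responsive genes limma called 0, against 2.55% of all genes in CCK+ and 1.23% in CCK- cells. An unadjusted p under 0.05 held for 1 in CCK+ (3736 of all 22042 genes) and 3 in CCK- cells (2635 of all genes). Of 6 fasting-responsive metabolic genes, 1 was called lower in CCK- cells (0.526% of all genes) and 0 in CCK+ cells (1.23% of all genes). Among these 6, 3 had an unadjusted p under 0.05 in CCK+ cells (3736 of all 22042 genes). Pdk4, which inhibits pyruvate dehydrogenase, was at 1027, 2147 and 1530.1 in CCK- fasted mice A, B and F and at 473, 507 and 468 in CCK- refed mice C, D and E, without overlap. It fell by 1.64 (limma adjusted p = 0.0189) in CCK- cells and had a difference of -1.18 (limma adjusted p = 0.0581) in CCK+ cells; 2 of 12 fits without 1 library kept the CCK- call (limma adjusted p 0.0113 to 0.128 over the alternatives), and the CCK+ difference passed with the mouse as a random block (limma adjusted p = 0.04895; 0.0392 to 0.264 over the alternatives).

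**Figure D4:**
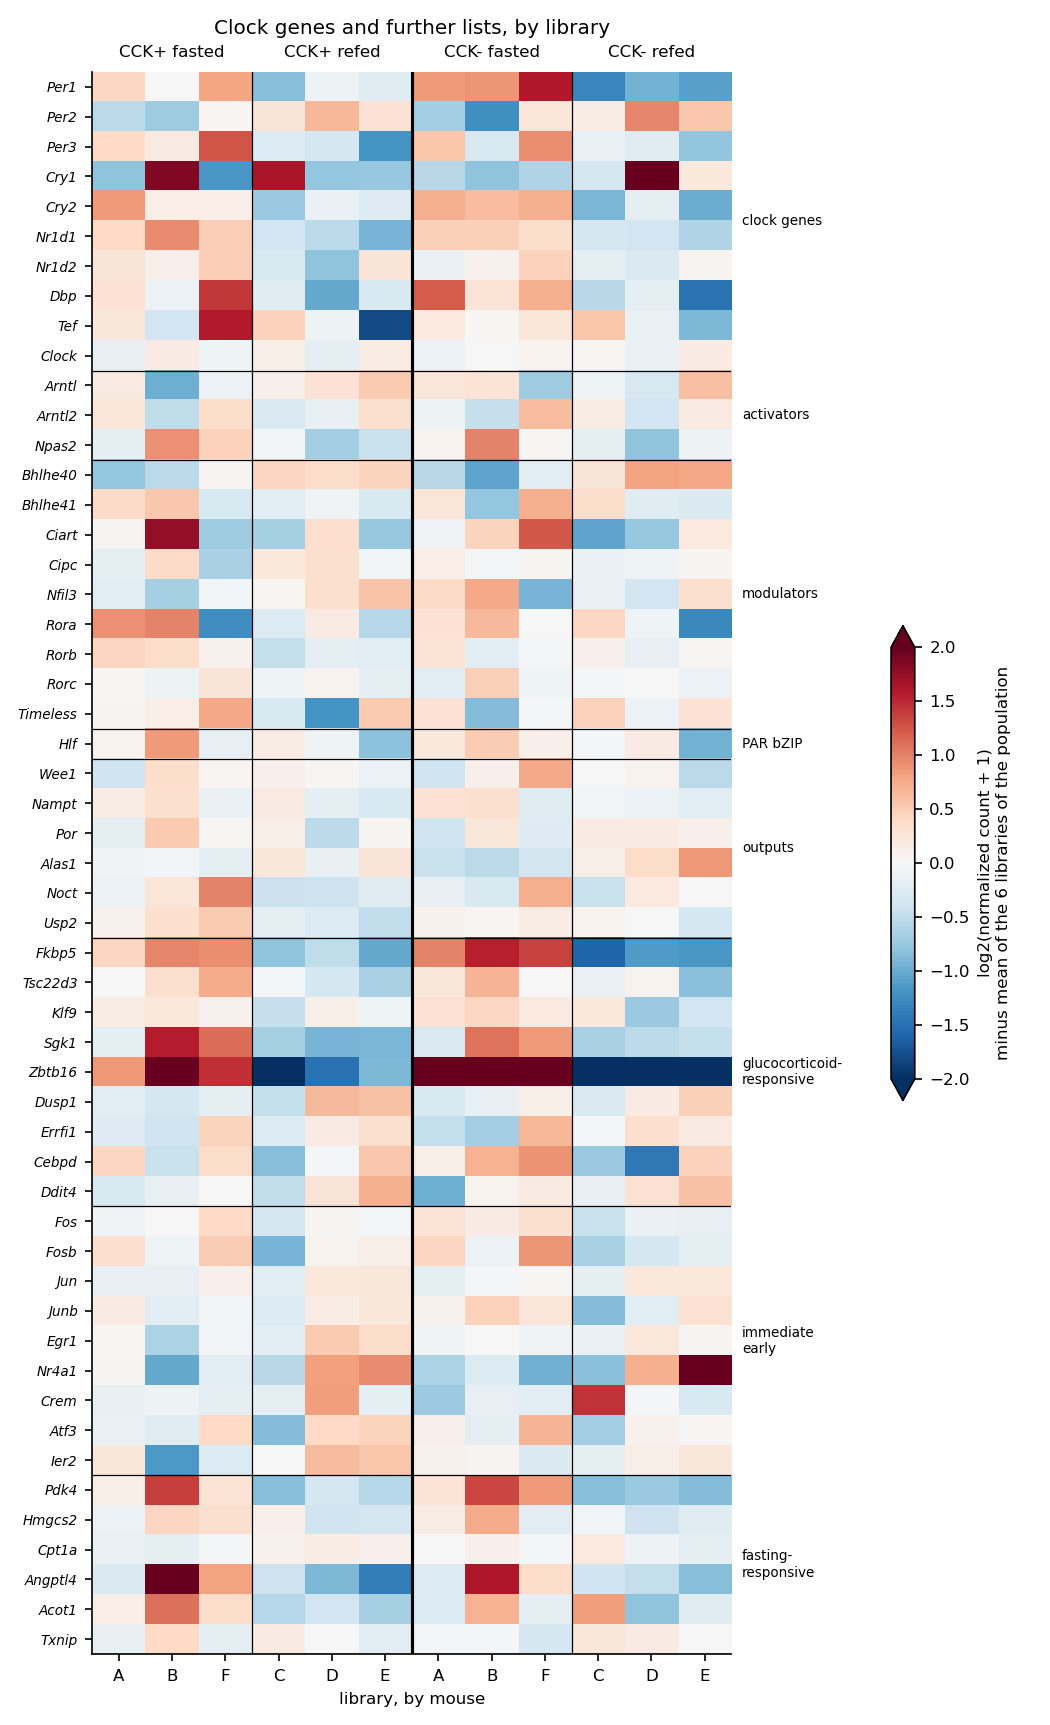
Log2(normalized count + 1) minus the mean of the 6 libraries of its population, for the clock genes and further lists, 1 line a gene, in the 12 libraries, with colours capped at 2 on either side. Per1, Cry2, Nr1d1, Fkbp5 and Zbtb16 are higher in fasted than in refed libraries in both populations, and Bhlhe40 and, on average, Per2 lie the other way.

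Markers of cell types were summed in each library, and in bulk libraries fewer cells of a type and less RNA per cell cannot be told apart. The 10 enterocyte markers summed to 273077, 439155 and 338343 normalized counts in CCK+ fasted mice A, B and F and to 288069.6, 209228.0 and 172329.5 in CCK+ refed mice C, D and E. Apoa1 or Anpep was the most abundant in every library, and none was at 0. limma called 2 of the 10 lower in CCK+ refed libraries (Lct and Slc5a1; 1.23% of all genes) and 0 in CCK- cells (0.526% of all genes), where the sums ran from 487704 to 689203. In CCK+ cells 5 of the 10 had an unadjusted limma p under 0.05 (3736 of all genes), and in CCK- cells 1 (2635 of all genes).

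The 12 enteroendocrine markers, led by Chgb, summed to 217717, 100539.9 and 168325 normalized counts in CCK+ fasted mice A, B and F and to 248622, 315636 and 262956 in CCK+ refed mice C, D and E. All 12 had a difference above 0 in CCK+ cells and 0 were called by limma, where 1.31% of all genes were called higher. Of the 12, 5 had an unadjusted limma p under 0.05 there (3736 of all genes). CCK+ fasted B thus had the lowest enteroendocrine and the highest enterocyte sum of the CCK+ libraries. In the CCK- libraries the 12 summed to 1454.5 to 2863. There the refed minus fasted difference was above 0 for 3 and below 0 for 9 (median -0.38). In CCK- cells 0 of the 12 were called, against 1.23% of all genes, and 1 had an unadjusted limma p under 0.05 (2635 of all genes). The 7 markers of cycling or immature crypt cells, led by Mki67 in 11 of the 12 libraries, summed to 1604, 1700.0 and 3010.1 in CCK+ fasted A, B and F and 3088, 4075 and 4042 in CCK+ refed C, D and E, and to 1045, 1058 and 1449 in CCK- fasted A, B and F and 2324, 2706 and 2093 in CCK- refed C, D and E. All 7 had a difference above 0 in both populations. Of the 7, 1 was called higher in CCK+ cells (Mki67, 1.31% of all genes) and 2 in CCK- cells (Mki67 and Top2a, 0.708% of all genes). In CCK+ cells 7 of 7 had an unadjusted limma p under 0.05 (3736 of all genes), and in CCK- cells 6 (2635 of all genes).

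Of 9 measured lymphocyte markers, led by Gzma, 8 were called higher in CCK+ cells (19.6% of all genes). The 9 summed to 4442 to 10248 normalized counts in CCK+ cells, against 524 to 1159 in CCK- cells. With refeeding 0 of the 9 were called, against 2.55% of all genes in CCK+ and 1.23% in CCK- cells. The 6 Paneth markers, led by Lyz1 in 11 of 12 libraries, were highest in CCK+ refed D (24858), CCK+ fasted A (15593) and CCK- refed D (14604) and otherwise 1658 to 7030.2. All 6 had a difference above 0 with refeeding in both populations (medians 1.33 in CCK+ and 1.06 in CCK- cells). Of the 6, 0 were called by limma, where 1.31% of all genes in CCK+ and 0.708% in CCK- cells were called higher. An unadjusted p under 0.05 held for 4 of the 6 in CCK+ (3736 of all genes) and 1 in CCK- cells (2635 of all genes). The 7 goblet markers, led by Muc2 or Fcgbp, summed to 21425 to 48754, all 7 with a difference above 0 in both populations and 1 called higher with refeeding in CCK- cells (Agr2; 0.708% of all genes), and the 6 tuft markers to 159 to 917, with Il25 at 0 in 10 of the 12 libraries, Pou2f3 at 0 in CCK+ fasted A and Gfi1b at 0 in CCK+ refed E and CCK- refed D; no other marker was at 0. The part of these cell types in the clock gene differences was not tested.

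**Figure D5:**
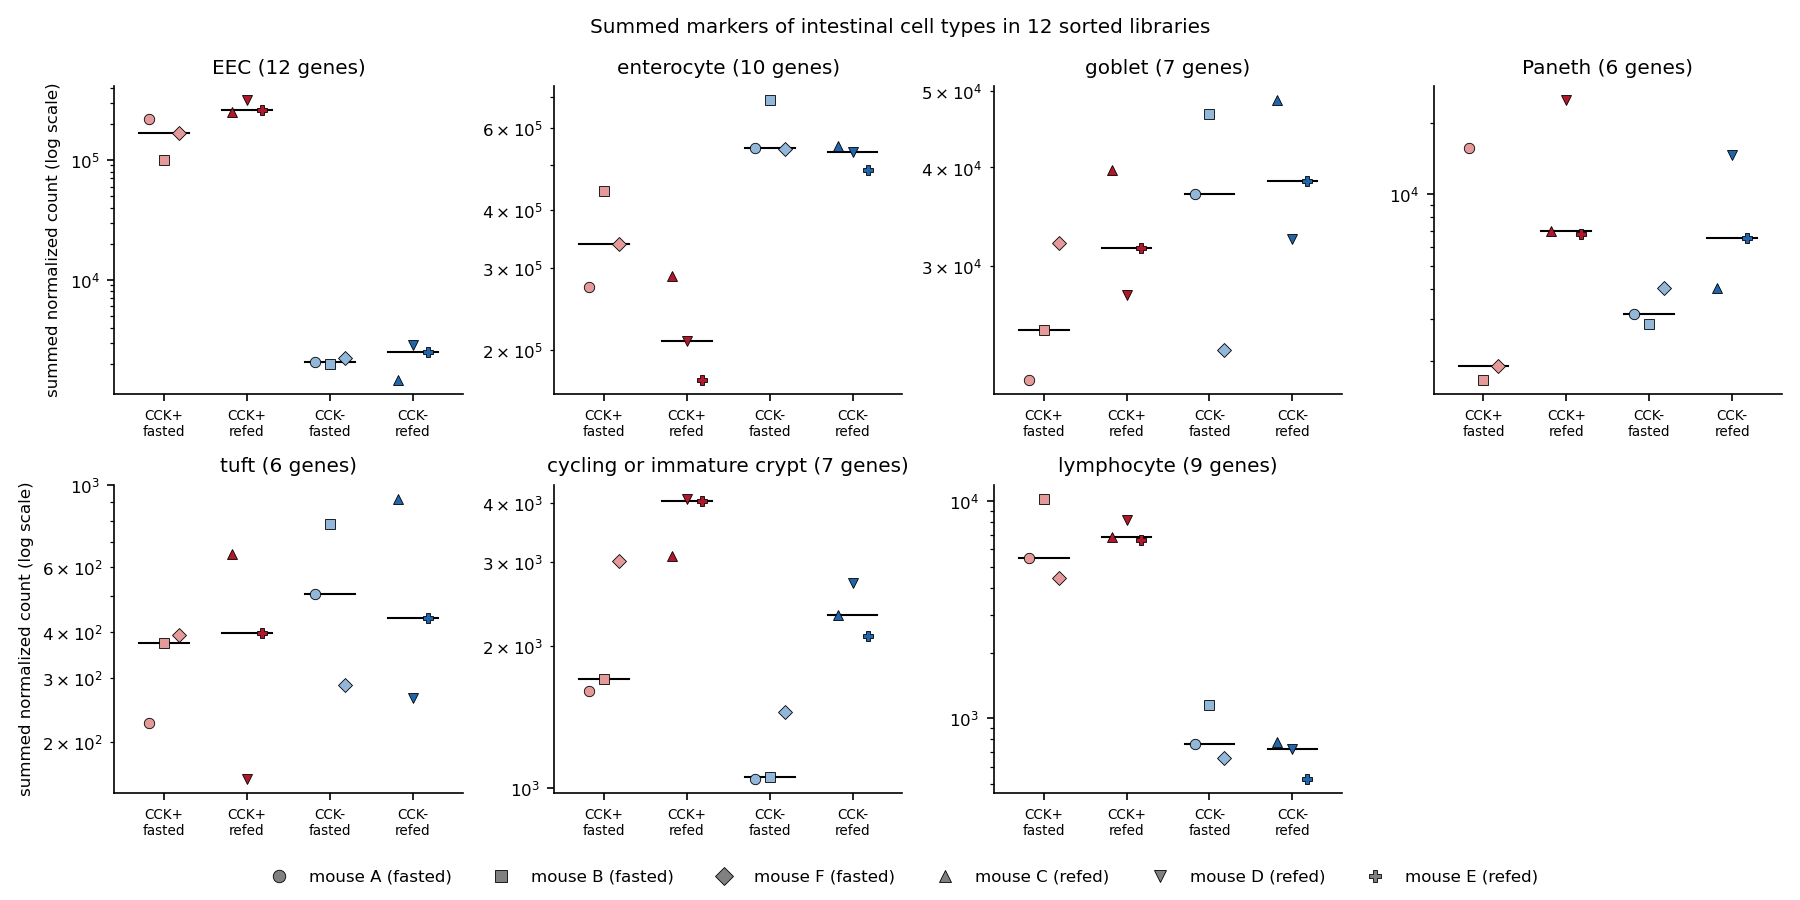
Summed normalized count (log axis) of the markers of 7 cell types in the 12 libraries, with a symbol for each mouse and a bar at the median of 3. Enteroendocrine and lymphocyte sums separate CCK+ from CCK- libraries, and the cycling sums of refed libraries lie above the fasted ones of their population.

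With 3 mice a state, the fits could not detect small differences, and a gene that was not called is not shown to be unaltered. Each mouse was collected once, so that phase and amplitude of the clock could not be measured, and a shift in phase and a change of level cannot be told apart. Whether food, glucocorticoids, the hour of collection or the share of cell types lies behind the differences was not tested. Levels of mRNA do not give levels of protein. Mice A, B and F and mice C, D and E differ in state and in anything else that went with it, such as the day of sorting, which is not given in the sources used here.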

How the data were processed

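Bulk RNA libraries of sorted CCK+ and CCK- cells were used; the droplet library was not used here. The deposited signal values are gene counts that the authors made with Trim Galore 0.6.7 and Salmon 1.6.0 on the GRCm39 transcriptome, summed per gene with tximeta, without genes of at most a single count, and scaled by normalization factors from DESeq2. Of the values above 0, at most 0.18% in a library lie within 0.001 of a whole number, and the depth in reads is unknown. The table covers 22042 genes; 16656 to 18855 were above 0 in a library.

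From these, log2(normalized count + 1) was fitted with limma 3.58.1 in R 4.3.3, with 4 group means, a mean-variance trend and 8 residual degrees of freedom, and p was adjusted by Benjamini-Hochberg over all genes. The unit is 1 library per mouse and population. Figures and counts used Python with pandas.

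Groups follow the cell type and treatment labels; the titles of all 4 bulk groups name CCK+ cells, and the label of each library was compared with its level of Cck. Both populations came from each mouse, as the series' design states, and the letter in the table was taken as the mouse. The deviations from the group means of libraries of the same mouse correlated at 0.0773 to 0.1242 (6 pairs), against -0.0826 to -0.0184 for different mice (12 pairs). Deviations cancel out within a group, so the negative values for different mice partly follow from the positive ones of the same mouse. By the stated design, CCK+ and CCK- comparisons share mice.

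The members and lists were chosen with earlier results of these data known. All 10 clock genes are named; of each further list those past the threshold with refeeding are named, with Arntl, Npas2, Bhlhe40, Nfil3, Ciart and Hlf in any case. The result of 1 further list is not reported here. Nearest patterns were the 5 highest correlations among all genes with a mean of at least 50. Promoters are from RefSeq (GRCm38.p6), and printed where a clock gene was called with refeeding and its window held an E-box, D-box, ROR element or CRE. The comparison on the mean of each mouse was added after seeing the data. Alternatives were another pseudocount, a filter at a mean of 10, other scalings, subsets of libraries, a mouse block, no trend and each library left out.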

Additional observations from a re-analysis of the deposited data

How the results depend on the processing

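Among the values of single genes, 1270 of 1478 under an alternative kept their direction and side of the threshold, 160 fell short of it, 12 passed it and 36 changed sign. Nr1d1 in CCK+ cells and Per1 in CCK- cells kept their calls in all alternatives but the fit of the compared libraries alone. Fits with fewer libraries have fewer degrees of freedom. Without a library of the other population, a refed against fasted difference keeps its value. Only the spread and degrees of freedom behind its p change, so such fits do not test how far the difference rests on a compared library.

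The count of genes called by limma with refeeding was 561 in CCK+ cells (289 higher, 272 lower), 850 after quantile normalization, 119 with no mean-variance trend, 0 with only the 6 libraries compared, and 103 to 876 with 1 library left out (876 without CCK+ fasted A, 193 without CCK+ fasted B, 351 without CCK+ fasted F, 103 without CCK+ refed D, 183 without CCK+ refed E and 333 without CCK- refed D). With equal sums the split was 631 higher and 184 lower, and the median of all genes moved to 0.20. In CCK- cells 272 became 165 after quantile normalization, 63 with only the libraries compared, 66 with no trend, and 79 to 268 with 1 library left out. The clock genes called in CCK+ cells went from 1 to 0 with only the libraries compared, and were 1 in each fit with 1 library left out. In CCK- cells 3 became 0 with only the libraries compared, 1 with no trend, and 1 to 3 with 1 library left out.

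Between the populations, 7431 genes called (4324 higher, 3107 lower) became 2169 in the fasted libraries alone and 6520 to 7618 with 1 library left out, with a split of 6511 and 1232 under equal sums (median 0.35, from 0.09) and of 3225 and 4522 after quantile normalization (median -0.14). The 5 clock genes became 3 with equal sums, 3 in the refed libraries alone, 0 in the fasted libraries alone and 5 to 6 with 1 library left out. For the difference between populations in refeeding, 1 gene became 0 with pseudocount 10, 2 after quantile normalization, 2 with no trend and 1 to 6 with 1 library left out, and the clock genes called stayed at 0 throughout. On the mean of each mouse, chosen after seeing the data, 577 genes became 378 with pseudocount 10, 3 with no trend and 0 to 1 with 1 mouse left out, and 3 clock genes became 0 with no trend and 0 in every fit with 1 mouse left out. Equal sums moved the median of all genes to 0.13 in both of these comparisons, and on the mean of each mouse the split from 298 higher and 279 lower to 488 and 198. Among the clock genes and the further genes named, the mouse as a block changed the calls of Per2 between populations and of Pdk4 in CCK+ cells and no other.

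Signs that changed belonged to differences that were not called. Between the populations, Per3 was at 0.14 and Cry1 at 0.38 with equal sums, Cry1 at 0.60 in the fasted libraries alone, and Tef at -0.14 in the refed libraries alone. With 1 library left out, Cry1 ran from -0.72 to 1.02 in CCK+ cells and from -0.49 to 0.34 between populations. Clock ran from -0.014 to 0.162 in CCK+ cells, from -0.038 to 0.107 in CCK- cells, from -0.055 to 0.129 for the difference in refeeding, and from -0.023 to 0.135 by mouse. Tef ran from -0.676 to 0.057 in CCK- cells, from -0.093 to 0.51 between populations and from -1.112 to 0.013 for the difference in refeeding, where Per2 ran from -0.693 to 0.047. In CCK- cells Arntl ran from -0.20 to 0.32 and Nfil3 from -0.63 to 0.21. With 3 mice a state, small differences could not be detected.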
